A study of Arabidopsis thaliana with 9 samples.

Results

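MicroRNA (MIRNA) precursor genes are the 175 genes, of 33602 in the gene count tables, whose common name begins with MIR and a number. They belong to 104 numbered families, have a median annotated length of 126 bases, and were examined in whole Arabidopsis thaliana plants of 3 genotypes by RNA-seq of polyadenylated RNA. Wild type (WT) was the Columbia accession, which is also the background of both mutants. The prmt5 mutant carried the prmt5-5 allele. The prmt4a;4b double mutant came from a cross of the T-DNA insertion lines SALK_033423 (prmt4a) and SALK_097442 (prmt4b). Each genotype had 3 libraries. Plants were kept in continuous light at 22 °C, and the sample labels give harvest at day 15, whereas the methods of the study give a shorter time. The sources do not say whether the 3 libraries of a genotype came from separate cultures, so the p-values measure only the spread between these libraries, which may be technical.

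In plants a MIRNA gene is transcribed by RNA polymerase II into a capped and polyadenylated primary transcript that folds back into a hairpin. The ribonuclease DCL1, helped by the double-stranded RNA binding protein HYL1 and the zinc finger protein SE, cuts the hairpin out and then releases a short duplex, HEN1 methylates its ends, and one strand is loaded into AGO1 to guide cleavage or translational repression of matching mRNAs. PRMT5 makes symmetric dimethylarginine on proteins such as spliceosome components and histones, whereas PRMT4A and PRMT4B make asymmetric dimethylarginine. Reads of polyadenylated RNA can come from primary transcripts, from polyadenylated remnants left after the hairpin is cut out, or from other genes that share the locus, but not from the mature miRNA, and the counts do not separate these sources.

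The members that carried most of the results can be read from the small RNAs that they encode. All 175 members matched a RefSeq locus with an annotated mature miRNA (assembly TAIR10.1, which on the nuclear chromosomes keeps the coordinates of the TAIR10 genome used by the authors). The following mature sequences, written 5′ to 3′ with the seed (bases 2 to 8) in capitals, belong to the 7 called members from families that also have targets in the list examined below. MIR398B and MIR398C encode the same 3′ arm.
miR398c-3p: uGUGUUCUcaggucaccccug
miR398b-3p: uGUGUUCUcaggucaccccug
miR408-3p: aUGCACUGccucuucccuggc
miR162a-3p: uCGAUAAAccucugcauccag
miR156c-5p: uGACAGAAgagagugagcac
miR167d: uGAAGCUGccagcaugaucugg
miR824-5p: uAGACCAUuugugagaaggga
The seed GUGUUCU occurred in 3 members (the MIR398 family), GACAGAA in 9 (the MIR156 family and MIR157D), GAAGCUG in 3 (MIR167), CGAUAAA in 2 (MIR162A and MIR162B) and UGCACUG in MIR408 alone.

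The other called members encode miRNAs that are not conserved across plants, each with a seed of its own in the next set. These are shown because 4 of them (miR835, miR850, miR863 and miR822) come from genes that rose in both mutants, and because all but the MIR822A gene lie inside or across other genes.
miR835-5p: uUCUUGCAuauguucuuuauc
miR850: uAAGAUCCggacuacaacaaag
miR863-3p: uUGAGAGCaacaagacauaau
miR822-5p: uGCGGGAAgcauuugcacaug
miR834: uGGUAGCAguagcggugguaa
miR838: uUUUCUUCuacuucuugcaca

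The hairpins of 3 members described at length below follow from RefSeq, with both mature arms in capitals. They mark where in each counted gene the miRNA sits, since the annotated genes are longer. The MIR398C hairpin (115 bases, chr5:4694694-4694808, + strand) lies at the 5′ end of a gene annotated at chr5:4694626-4697013. The MIR162A hairpin (140 bases, chr5:2634905-2635044, - strand) lies inside a gene with introns at chr5:2634101-2635438. Part of this hairpin falls in an annotated intron (chr5:2634876-2634973), and the rest in adjoining splicing bins (chr5:2634974-2635046). The MIR408 hairpin (218 bases, chr2:19319814-19320031, + strand) lies at the 5′ end of a gene at chr2:19319780-19321026.
MIR398C: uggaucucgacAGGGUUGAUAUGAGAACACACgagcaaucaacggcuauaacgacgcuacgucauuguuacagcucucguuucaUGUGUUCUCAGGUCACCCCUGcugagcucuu
MIR162A: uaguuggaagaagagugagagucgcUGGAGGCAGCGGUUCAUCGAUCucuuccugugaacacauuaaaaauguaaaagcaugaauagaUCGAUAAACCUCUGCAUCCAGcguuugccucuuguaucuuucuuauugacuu
MIR408: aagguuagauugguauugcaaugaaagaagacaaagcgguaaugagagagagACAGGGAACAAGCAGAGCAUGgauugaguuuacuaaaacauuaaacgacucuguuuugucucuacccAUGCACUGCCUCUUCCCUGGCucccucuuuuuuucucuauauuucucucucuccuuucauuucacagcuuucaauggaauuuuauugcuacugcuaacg

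The libraries held between 25029646 and 39904677 reads assigned to genes. Plastid genes took 0.323% to 0.58% of them in WT, 0.604% to 2.104% in prmt5 and 0.869% to 3.943% in prmt4a;4b, and prmt5 replicate 1 and prmt4a;4b replicate 3 had the highest shares of their genotypes. Of 8 seed storage and oil body genes, the summed normalized reads lay between 4020 and 6600 in WT, 1130 and 13700 in prmt5 (the highest in 1 library) and 1950 and 2530 in prmt4a;4b. Of 8 floral organ identity genes the sum was 150.0 to 198.0 in WT, 110.0 to 174.0 in prmt5 and 38.7 to 89.5 in prmt4a;4b, with 3, 1 and 2 genes at 0 respectively. For 8 root genes it was 2040 to 2710, 2980 to 3180 and 2290 to 2640, and no root or seed gene was at 0 in any genotype. In whole plants fewer cells of a type and less RNA per cell cannot be told apart, and the part of these differences in the results below was not tested.

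Most MIRNA precursor genes were not seen in these libraries. No read was assigned to 93 of the 175 members in any library, and 50 of the 82 members with reads had fewer than 20 in all 9 libraries together. A gene entered a test when its mean was at least 10 reads in at least 1 genotype of the comparison, which left 14 members in prmt5 against WT and 16 in prmt4a;4b against WT, and 16 members tested in all. The tested members were long, with a median length of 514 bases against 123 bases for the other members. Of the 10 members longer than 500 bases, 8 were tested. Just outside the filter were MIR860A, MIR167A and MIR168A, the last encoding the miRNA that targets AGO1, with highest genotype means of 9.67, 9.33 and 8.33 reads. Just inside were MIR157C with 11.3 and MIR838A with 15.7.

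In RPM, the usual unit of reads scaled by library depth, the members together held 84.7 to 98.8 in WT, 62.9 to 77.4 in prmt5 and 130 to 156 in prmt4a;4b. MIR398C alone supplied 66.1% to 77.8% of these reads, although almost all of its own reads were also counted for the overlapping gene NRT2.7 (below). Without MIR398C the members held 24.8 to 26.4 RPM in WT, 19.9 to 24.6 in prmt5 and 30.3 to 38.6 in prmt4a;4b. RPM divides by all gene reads, whereas the levels and tests below use TMM scaling. On that scale the members summed to 2257 to 2894 normalized reads in WT, 2040 to 2581 in prmt5 and 4670 to 4833 in prmt4a;4b, and without MIR398C to 662 to 751, 665 to 821 and 1060 to 1200. The prmt4a;4b libraries were thus above all others on both scales, whereas prmt5 lay below WT in RPM only and overlapped it after TMM scaling.

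A gene was called when edgeR's quasi-likelihood test gave a Benjamini-Hochberg adjusted p under 0.1, over all genes tested, with a log2 change larger than 0.58 in size. In prmt5, 5 of the 14 tested members were called higher and 2 lower than in WT, beside a background of 26.1% of all genes called (11.9% higher and 14.2% lower). In prmt4a;4b, 10 of the 16 tested members were called higher and 1 lower, beside a background of 25.8% (13.8% higher and 12.0% lower). The median log2 change of the tested members was 0.09 in prmt5 and 1.32 in prmt4a;4b, where the median of all genes was -0.01 and 0.0. These medians and counts include 4 members that passed the filter through a mutant only, namely MIR835A, MIR824A, MIR838A and MIR157C. Among the 12 members whose WT mean reached 10 reads, 3 were called higher and 2 lower in prmt5, and 8 higher and 1 lower in prmt4a;4b. Both mutants were compared with the same 3 WT libraries.

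**Figure D1:**
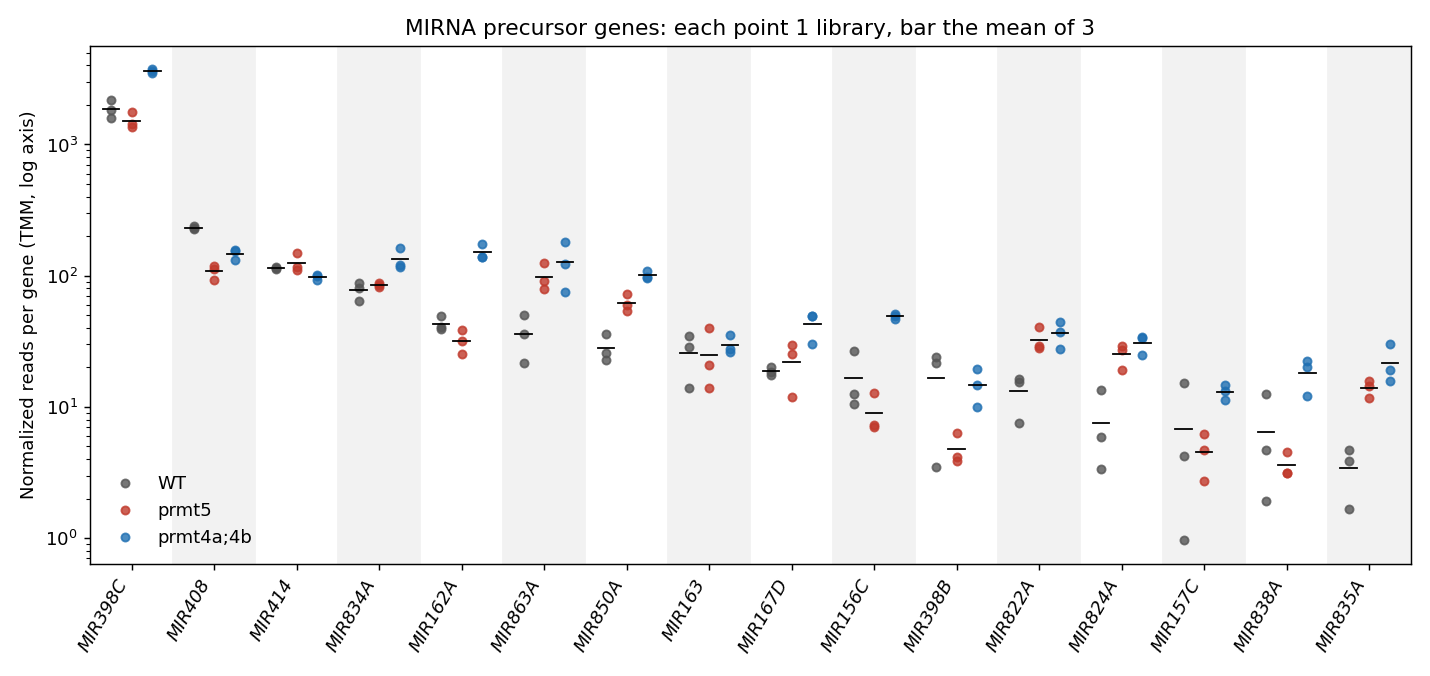
Normalized reads (vertical log axis) of the 16 tested MIRNA precursor genes, in order of their WT mean, with 1 point per library and a bar at the mean of the 3 libraries of each genotype. MIR398C stands above all other members in every library, and its prmt4a;4b points lie between 3510 and 3730, above all WT points.

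Direct comparison of the mutants used the fit of all 9 libraries. Of 16 tested members, 6 were called, all lower in prmt5 than in prmt4a;4b (MIR162A, MIR156C, MIR398C, MIR838A, MIR850A and MIR834A), beside a background of 17.8% of all genes called (9.39% higher and 8.37% lower). The median log2 difference of the members was -0.68, against -0.01 for all genes. MIR838A and MIR157C entered this comparison only through prmt4a;4b, where their reads were highest. Among the 12 members with a WT mean of 10 reads, 5 were called, all lower in prmt5, with a median of -0.68.

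The reads of a MIRNA gene cannot always be told from those of a neighbour, because the counts are not separated by strand as far as the sources say, and overlapping genes appear to share their reads. Of the 175 members, 33 overlapped another gene in the tables, and so did 9 of the 16 tested members. The 7 tested members that overlapped no other gene were MIR162A, MIR156C, MIR167D, MIR822A, MIR163, MIR414 and MIR157C. Of these, 1 of the 6 tested in prmt5 was called (MIR822A, higher), beside the background of 26.1%. In prmt4a;4b 4 of the 7 were called (MIR162A, MIR156C, MIR167D and MIR822A, all higher), beside 25.8%, and directly between the mutants 2 of the 7 (MIR162A and MIR156C), beside 17.8%. The members are therefore described in 2 groups, beginning with those that stand alone.

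MIR162A encodes the miRNA that targets the mRNA of DCL1, the enzyme that makes miRNAs. It held 42, 47 and 42 reads in the WT libraries, 37, 41 and 28 in the prmt5 ones and 112, 165 and 114 in the prmt4a;4b ones. The 3 prmt4a;4b libraries were all above the other 6, and after normalization the 3 prmt5 libraries were all below WT. The normalized mean was 43.0 ± 5.36 (SD, n = 3) in WT, 32.0 ± 6.62 in prmt5 and 151 ± 20.6 in prmt4a;4b. MIR162A was 3.52-fold higher in prmt4a;4b than in WT (log2 1.82 ± 0.23 SE, adjusted p = 0.000234), whereas the change in prmt5 was not called (log2 -0.47 ± 0.32, adjusted p = 0.285). Directly, it was 4.71-fold lower in prmt5 than in prmt4a;4b (log2 -2.24 ± 0.25, adjusted p = 6.36e-05).

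The MIR162A gene has 4 introns in the tables, which also collected reads. Together, over 660 bases, they held 17, 9 and 18 reads (WT), 11, 19 and 11 (prmt5) and 27, 64 and 20 (prmt4a;4b). Per 100 bases, the mean was 2.22 reads in WT introns and 6.44 in exons, and 5.61 and 19.2 in prmt4a;4b. The means of the exons and of the summed introns were thus both highest in prmt4a;4b. Replicate 2 held the most of these intron reads (64), whereas replicate 3 (20) was close to prmt5 replicate 2 (19). Not every intron followed the sum, since the one of 87 bases had the same mean of 3.07 in both mutants. The intron reads were not tested. The intron that holds part of the hairpin (98 bases) had 2, 0 and 6 reads (WT), 0, 5 and 2 (prmt5) and 5, 10 and 5 (prmt4a;4b). The adjoining splicing bin of 68 bases held 7, 8 and 2 reads (WT), 2, 3 and 2 (prmt5) and 0, 14 and 8 (prmt4a;4b). A change of the hairpin part alone was not tested. The other gene of the family, MIR162B, had 1 read in WT replicate 2 and 1 in prmt4a;4b replicate 3.

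MIR156C encodes a member of the miR156 family, which holds plants in the juvenile phase by acting on SPL transcription factors. Its reads were 11, 15 and 23 reads in WT, against 7, 9 and 14 in the prmt5 libraries and 41, 44 and 41 in those of prmt4a;4b. All prmt4a;4b libraries lay above WT, while prmt5 and WT overlapped. Normalized means were 16.7 ± 8.91 in WT, 9.01 ± 3.2 in prmt5 and 49.1 ± 2.35 in prmt4a;4b (SD, n = 3). The gene was 2.99-fold higher in prmt4a;4b (log2 1.58 ± 0.42, adjusted p = 0.0122), not called in prmt5 (log2 -0.90 ± 0.54, adjusted p = 0.225), and 5.39-fold lower in prmt5 than in prmt4a;4b (log2 -2.43 ± 0.45, adjusted p = 0.00249).

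MIR156C spans 2555 bases with 2 introns. The first intron held 1, 0 and 4 reads in the WT libraries, 11, 8 and 7 in the prmt5 ones and 12, 22 and 22 in the prmt4a;4b ones. Here every prmt5 library had more reads than every WT library, whereas in the exons the 2 genotypes overlapped and prmt5 had the lowest mean. The second held 8, 7 and 19 reads (WT), 11, 3 and 6 (prmt5) and 11, 44 and 24 (prmt4a;4b). These counts of single introns were not tested.

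MIR167D belongs to the family that targets the auxin response factors ARF6 and ARF8. It held 21, 22 and 15 reads in WT, against 24, 38 and 13 in the prmt5 libraries and 24, 47 and 41 in those of prmt4a;4b. After normalization the prmt4a;4b libraries (29.9, 49.7 and 49.6) were above all WT libraries (17.6 to 20.3). The gene was 2.29-fold higher in prmt4a;4b (log2 1.20 ± 0.38, adjusted p = 0.028) and not called in prmt5 (log2 0.20 ± 0.44, adjusted p = 0.754) or directly (log2 -0.95 ± 0.40, adjusted p = 0.103, and 0.0703 without prmt4a;4b replicate 1, where it was called). The call in prmt4a;4b did not survive the removal of prmt4a;4b replicate 2 (adjusted p = 0.105) or replicate 3 (adjusted p = 0.109).

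MIR822A, which encodes a miRNA of Arabidopsis known to act on genes for DC1 domain proteins, was the only member without an overlap that rose in both mutants. It held 16, 9 and 14 reads in the WT libraries, 39, 37 and 31 in the prmt5 ones and 22, 35 and 37 in the prmt4a;4b ones. Every mutant library was above every WT library. The change was 2.43-fold in prmt5 (log2 1.28 ± 0.43, adjusted p = 0.0413) and 2.80-fold in prmt4a;4b (log2 1.49 ± 0.44, adjusted p = 0.022), and the direct difference was -0.17 ± 0.38 (adjusted p = 0.787). In prmt5 the call was lost without WT replicate 2 (adjusted p = 0.133) or without prmt5 replicate 1 (adjusted p = 0.119).

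The 3 remaining members without an overlap were not called with all libraries in. MIR163, whose miRNA acts on methyltransferase genes, held 36, 34 and 12 reads (WT), 38, 18 and 23 (prmt5) and 22, 25 and 29 (prmt4a;4b), and the genotypes overlapped. Its log2 change was -0.13 ± 0.48 in prmt5 and 0.19 ± 0.42 in prmt4a;4b. MIR414, of which 117, 138 and 97 reads were seen in WT, had 143, 149 and 121 in the prmt5 libraries and 82, 88 and 83 in those of prmt4a;4b. Its normalized prmt4a;4b values were all below WT, by a log2 change of -0.21 ± 0.20 (adjusted p = 0.436). MIR157C, of the same miRNA superfamily as MIR156C, held 1, 5 and 13 reads in WT, against 6, 6 and 3 in the prmt5 libraries and 9, 14 and 11 in those of prmt4a;4b, and in the last it was not called (log2 1.02 ± 0.74, adjusted p = 0.308). Without WT replicate 3, its WT library with the most reads, MIR157C was called higher in prmt4a;4b (log2 2.26, adjusted p = 0.0425). It was then also called directly, with fewer reads in prmt5 (log2 -1.52, adjusted p = 0.0879). The direct estimate was the same with all libraries in (-1.52 ± 0.73, adjusted p = 0.151). Without WT replicate 1 or 2 the change in prmt4a;4b was 0.50 or 0.76 and not called (adjusted p = 0.635 and 0.52). MIR157C passed the filter only through prmt4a;4b.

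MIR398C was the most abundant member per length in WT, at 962 normalized reads per kilobase, and encodes a miRNA of the copper response that targets copper/zinc superoxide dismutases. Its counts were 1907, 1905 and 1850 reads in the WT libraries, 1684, 1730 and 1581 in the prmt5 ones and 2994, 3439 and 2901 in the prmt4a;4b ones. The prmt4a;4b libraries did not overlap the others, whereas prmt5 and WT overlapped after normalization. MIR398C was 1.95-fold higher in prmt4a;4b than in WT (log2 0.96 ± 0.13, adjusted p = 0.000308). The difference in prmt5 was below the fold needed for a call (log2 -0.34 ± 0.15, adjusted p = 0.0942), and directly the gene was 2.40-fold lower in prmt5 than in prmt4a;4b (log2 -1.26 ± 0.14, adjusted p = 6.46e-05).

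These MIR398C reads were almost all counted a second time. NRT2.7 (AT5G14570), a nitrate transporter gene on the opposite strand, covers 80.8% of the MIR398C span, and its counts were 1892, 1898 and 1854 reads (WT), 1680, 1721 and 1579 (prmt5) and 2989, 3437 and 2900 (prmt4a;4b). The largest difference between the 2 genes in any library was 15 reads. NRT2.7 accordingly gave the same log2 change of 0.96 ± 0.13 in prmt4a;4b (adjusted p = 0.000311). The sources give no strand for these counts, and which strand the reads came from was not tested.

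The introns of the pair hold further counts at this locus. The NRT2.7 intron (78 bases), which is exon in MIR398C, held 117, 93 and 141 reads in WT, against 49, 56 and 60 in the prmt5 libraries and 116, 85 and 78 in those of prmt4a;4b. Its mean density was 150 reads per 100 bases in WT, against 98.1 over the NRT2.7 exons. In prmt5 it was 70.5, against 86.6 in the exons, and in prmt4a;4b 119, against 162, so that the intron was denser than the exons in WT and less dense in both mutants. The prmt5 libraries were therefore below all WT and prmt4a;4b libraries in this intron. The MIR398C intron (447 bases), of which 234 bases lie in the NRT2.7 span, held 8, 5 and 10 reads in the WT libraries, 10, 8 and 11 in the prmt5 ones and 15, 9 and 9 in the prmt4a;4b ones, or 1.72, 2.16 and 2.46 reads per 100 bases. Those 234 bases are exon in NRT2.7. The first MIR398C exon, which holds the hairpin, makes up 12.6% of the exon bases and lies outside the NRT2.7 span. MIR398C exceeded NRT2.7 by at most 15 reads in a library, and by 5, 2 and 1 in those of prmt4a;4b. Nearly all MIR398C reads, and with them the rise in prmt4a;4b, were thus also counted for NRT2.7. The reads of the hairpin exon were not counted separately. How reads that cross an exon border were counted is not given in the sources used here, and short introns gain most from such reads.

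**Figure D2:**
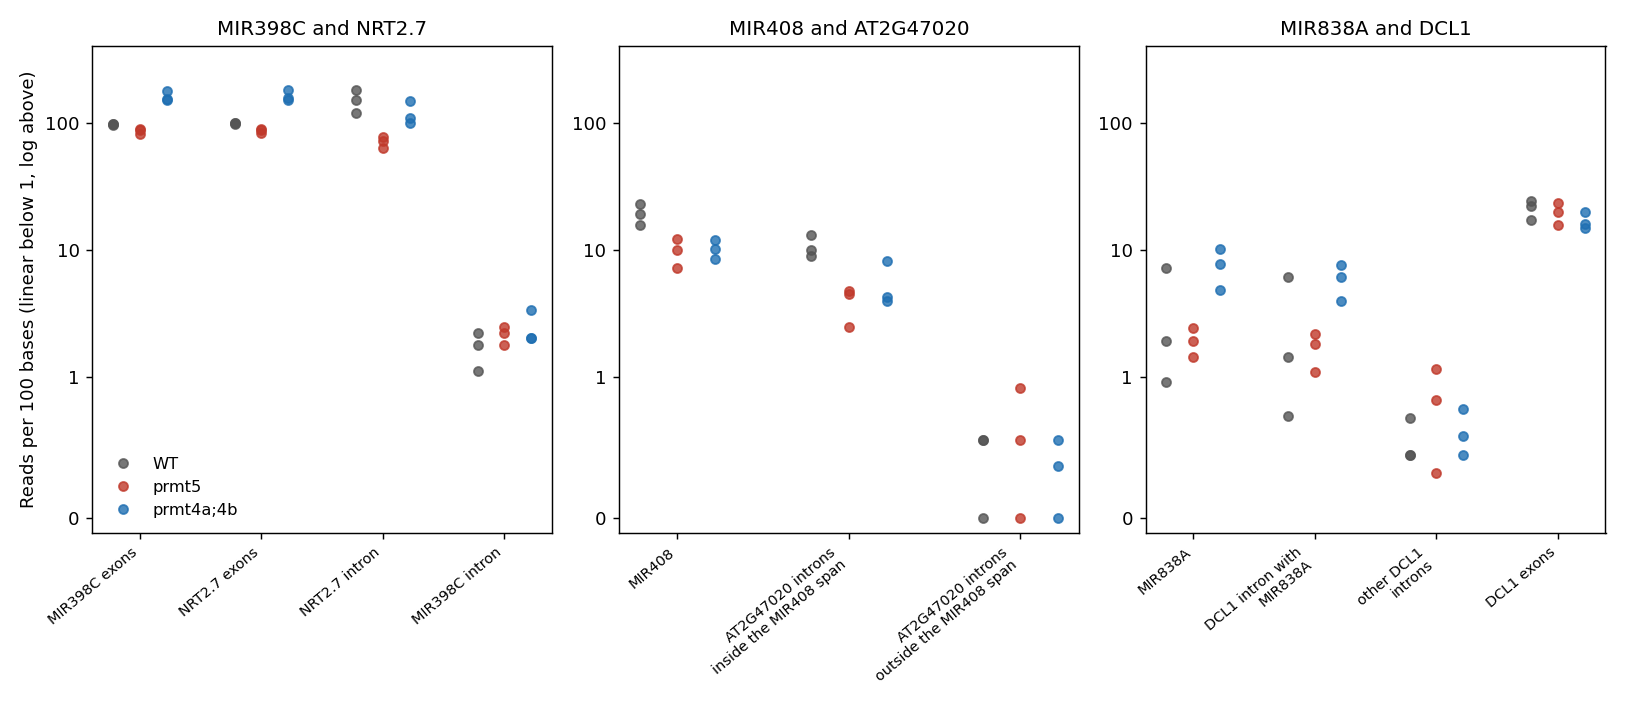
Reads per 100 bases (vertical axis, linear below 1 and logarithmic above, not scaled for depth) in exons and introns at 3 loci where a MIRNA gene overlaps another gene, with 1 point per library. The exons of MIR398C and NRT2.7 have nearly equal values and the NRT2.7 intron lies between 62.8 and 181. Introns of AT2G47020 are covered mainly inside the MIR408 span. The DCL1 intron with MIR838A has a higher mean density than the other DCL1 introns, by the least in prmt5 (1.69 against 0.773).

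MIR398B, which lies at chr5:4691022-4691137 within an exon of AT5G14550 on the opposite strand, held 25, 26 and 3 reads (WT), 4, 5 and 7 (prmt5) and 8, 14 and 16 (prmt4a;4b). WT replicate 3 had fewer reads than any mutant library, so that the genotypes overlapped. The gene was called lower in prmt5 (log2 -1.83 ± 0.68, adjusted p = 0.0615) and not in prmt4a;4b (log2 -0.19 ± 0.61, adjusted p = 0.838). The call in prmt5 was lost when WT replicate 1 (adjusted p = 0.192), WT replicate 2 (adjusted p = 0.163), prmt5 replicate 1 (adjusted p = 0.134) or prmt5 replicate 2 (adjusted p = 0.152) was left out. The direct difference missed the threshold (log2 -1.59 ± 0.67, adjusted p = 0.102), and was called without WT replicate 3 (adjusted p = 0.0441) or prmt4a;4b replicate 1 (adjusted p = 0.0951). AT5G14550 itself held 651 to 1074 reads per library and did not change in prmt5 by more than its error (log2 0.03 ± 0.15), while in prmt4a;4b its log2 change was 0.54 ± 0.15 (adjusted p = 0.0146, below the fold for a call). The 2 tested genes of the MIR398 family thus differed in which comparison they were called.

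MIR408 encodes another miRNA of the copper response, which acts on plantacyanin and laccase genes, and it was the only member that fell in both mutants. It held 238, 285 and 194 reads in WT, against 89, 152 and 125 in the prmt5 libraries and 106, 148 and 127 in those of prmt4a;4b. All mutant libraries were below all WT libraries. Normalized means were 232 ± 5.99 in WT, 108 ± 13.5 in prmt5 and 147 ± 13.2 in prmt4a;4b (SD, n = 3). The gene was 2.20-fold lower in prmt5 (log2 -1.14 ± 0.18, adjusted p = 0.00113) and 1.57-fold lower in prmt4a;4b (log2 -0.65 ± 0.16, adjusted p = 0.00973). The direct difference between the mutants was -0.44 ± 0.17 on the log2 scale and was not called (adjusted p = 0.0818).

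The whole MIR408 span lies within AT2G47020 on the opposite strand, a gene for a peptide chain release factor. AT2G47020 held 276, 338 and 239 reads in the WT libraries, 106, 173 and 145 in the prmt5 ones and 125, 187 and 165 in the prmt4a;4b ones, which exceeded the MIR408 counts by 17 to 53 reads. It was lower in prmt5 by a log2 change of -1.18 ± 0.16 (adjusted p = 0.000746) and in prmt4a;4b by -0.58 ± 0.16 (adjusted p = 0.0157). The 4 introns of AT2G47020 inside the MIR408 span (401 bases) held 40, 52 and 36 reads (WT), 18, 19 and 10 (prmt5) and 17, 33 and 16 (prmt4a;4b). The 6 introns outside that span (543 bases) held 0 to 5 reads in any library. Intron reads of AT2G47020 were thus found mostly where MIR408 is annotated, at a mean of 10.6 reads per 100 bases in WT against 0.368 elsewhere.

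MIR850A and MIR863A lie 669 bases apart on chromosome 4 in or beside AT4G13495, a noncoding gene of the same strand. MIR850A (chr4:7845707-7845927) is wholly inside an intron, and 58.7% of MIR863A (chr4:7846597-7846899) overlaps the 3′ exon. MIR850A held 37, 27 and 22 reads in WT, against 69, 69 and 66 in the prmt5 libraries and 78, 103 and 79 in those of prmt4a;4b. The genotypes did not overlap, and the gene was 2.14-fold higher in prmt5 (log2 1.10 ± 0.31, adjusted p = 0.0199) and 3.59-fold higher in prmt4a;4b (log2 1.84 ± 0.28, adjusted p = 0.000569). Directly, it was 1.63-fold lower in prmt5 than in prmt4a;4b (log2 -0.70 ± 0.25, adjusted p = 0.0584), a call that was lost without prmt5 replicate 2 or 3, or prmt4a;4b replicate 2 or 3 (adjusted p between 0.104 and 0.188).

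MIR863A encodes a miRNA that is known to act on SE and on a receptor-like pseudokinase gene. Its reads were 37, 26 and 43 reads in the WT libraries, 119, 116 and 87 in the prmt5 ones and 60, 116 and 150 in the prmt4a;4b ones. Every mutant library was above WT, with a change of 2.68-fold in prmt5 (log2 1.42 ± 0.32, adjusted p = 0.0075) and 3.57-fold in prmt4a;4b (log2 1.83 ± 0.37, adjusted p = 0.00269). The direct difference was -0.37 ± 0.33 (adjusted p = 0.44). AT4G13495 itself, with 2207 to 4372 reads per library, was not called in prmt5 (log2 0.22 ± 0.12, adjusted p = 0.186) or prmt4a;4b (log2 0.30 ± 0.12, adjusted p = 0.0772). The intron around MIR850A, 2621 bases long, held 419, 386 and 333 reads (WT), 697, 771 and 641 (prmt5) and 662, 719 and 796 (prmt4a;4b), so that its raw counts were higher in all mutant libraries. Its mean density was 14.5 reads per 100 bases in WT, beside 13.0 in MIR850A. In prmt5 it was 26.8, beside 30.8 in MIR850A, and in prmt4a;4b 27.7, beside 39.2. This intron was not tested.

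MIR824A, whose miRNA acts on AGL16, a MADS box gene of stomatal development, held 14, 4 and 5 reads in WT, against 28, 35 and 21 in the prmt5 libraries and 20, 32 and 28 in those of prmt4a;4b. All mutant libraries were above WT. MIR824A passed the filter only through the mutants (WT mean 7.67 reads), so its entry favoured a rise. It was 3.22-fold higher in prmt5 (log2 1.69 ± 0.54, adjusted p = 0.0337) and 4.06-fold higher in prmt4a;4b (log2 2.02 ± 0.54, adjusted p = 0.0126). The call in prmt5 was lost without WT replicate 2 (adjusted p = 0.106). Without WT replicate 1, its WT library with the most reads, the changes were 5.35-fold in prmt5 and 6.77-fold in prmt4a;4b. Of the span, 17.4% overlaps another gene, AT4G24410, which held 4, 2 and 1 reads (WT), 2, 11 and 6 (prmt5) and 7, 7 and 10 (prmt4a;4b). Its normalized prmt4a;4b values were all above WT (mean 9.41 against 2.24). It was too sparse to test, and the part of shared reads in the MIR824A counts was not tested. The 2 introns of MIR824A together held 3, 0 and 2 reads in the WT libraries, 0, 14 and 8 in the prmt5 ones and 1, 7 and 2 in the prmt4a;4b ones, with no order of the genotypes.

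MIR835A lies wholly in an exon of AT1G76065 on the same strand and gave the largest changes against WT of the called members, on few reads. It passed the filter only through the mutants (WT mean 3.33 reads), so its entry favoured a large rise. It held 4, 2 and 4 reads (WT), 15, 15 and 16 (prmt5) and 24, 18 and 13 (prmt4a;4b), without overlap between WT and either mutant. The change was 3.99-fold in prmt5 (log2 2.00 ± 0.59, adjusted p = 0.0246) and 6.32-fold in prmt4a;4b (log2 2.66 ± 0.61, adjusted p = 0.00578). AT1G76065 held 25, 8 and 26 reads in WT, against 24, 37 and 27 in the prmt5 libraries and 32, 42 and 21 in those of prmt4a;4b, and it was not called (log2 0.35 ± 0.50 and 0.87 ± 0.51).

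MIR834A lies wholly within AT5G08230, a gene of the same strand whose product resembles HUA2. The member held 91, 76 and 69 reads in the WT libraries, 84, 106 and 93 in the prmt5 ones and 131, 114 and 96 in the prmt4a;4b ones. After normalization the prmt4a;4b libraries were above WT, and the change was 1.73-fold (log2 0.79 ± 0.23, adjusted p = 0.0202), while prmt5 differed from WT by only 0.09 ± 0.22 (adjusted p = 0.773). Directly, MIR834A was lower in prmt5 by a log2 difference of -0.65 ± 0.22 (adjusted p = 0.0467), a call lost without prmt5 replicate 2 (adjusted p = 0.128), prmt5 replicate 3 (adjusted p = 0.112) or prmt4a;4b replicate 1 (adjusted p = 0.136). AT5G08230 was not called in prmt5 (log2 -0.24 ± 0.12) or in prmt4a;4b (log2 -0.09 ± 0.11). Its intron next to MIR834A held 28, 34 and 51 reads (WT), 52, 82 and 69 (prmt5) and 73, 109 and 87 (prmt4a;4b), against 3 to 19 reads per library over all other introns of the gene.

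MIR838A lies within an intron of DCL1, on the same strand, so that its reads are also reads of that intron. It held 2, 15 and 4 reads in WT, against 3, 4 and 5 in the prmt5 libraries and 16, 21 and 10 in those of prmt4a;4b, and WT replicate 2 overlapped prmt4a;4b. The change in prmt4a;4b was not called (log2 1.44 ± 0.64, adjusted p = 0.101), and was called without WT replicate 2 (log2 2.45, adjusted p = 0.0275). Directly, it was 4.91-fold lower in prmt5 than in prmt4a;4b (log2 -2.30 ± 0.66, adjusted p = 0.0251), with all prmt5 libraries below all prmt4a;4b libraries. MIR838A passed the filter only through prmt4a;4b (mean 15.7 reads, against 7.0 in WT and 4.0 in prmt5). Its entry thus favoured a difference in this direction. The intron held 2, 17 and 4 reads in the WT libraries, 3, 5 and 6 in the prmt5 ones and 17, 21 and 11 in the prmt4a;4b ones. The other 18 introns of DCL1 together held 5 to 18 reads per library, or 0.537, 0.773 and 0.601 reads per 100 bases as means of WT, prmt5 and prmt4a;4b, against 2.78, 1.69 and 5.92 in the intron with MIR838A.

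**Figure D3:**
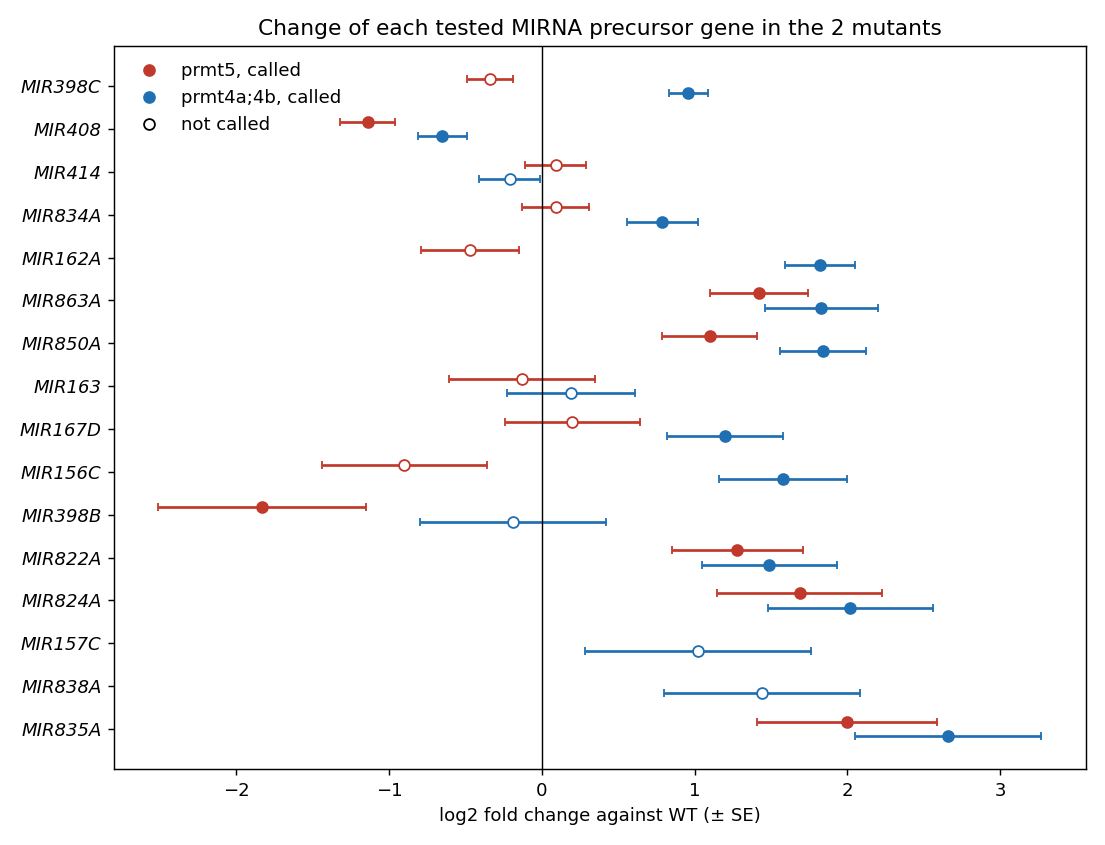
Log2 fold change against WT (horizontal axis, with SE from edgeR) of each tested MIRNA precursor gene in prmt5 (red) and prmt4a;4b (blue), where filled points were called and open points were not. MIR162A, MIR156C and MIR398C lie right of 0 in prmt4a;4b and left of 0 in prmt5, where none of the 3 was called.

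Members below the filter were mostly at single reads. Of the 66 members with reads that were never tested, MIR472A, which overlaps the disease resistance gene AT1G12290, had no read in WT, against 0, 2 and 0 in the prmt5 libraries and 6, 4 and 8 in those of prmt4a;4b. MIR841A, which overlaps the histone H2A gene HTA4, held 1, 1 and 0 reads (WT), 1, 2 and 0 (prmt5) and 7, 13 and 5 (prmt4a;4b). MIR160, of the family that targets ARF10, ARF16 and ARF17, went the other way in prmt5, with 5, 11 and 2 reads in WT, against 1, 0 and 0 in the prmt5 libraries and 2, 0 and 1 in those of prmt4a;4b. In a fit with no filter on low counts MIR472A (adjusted p = 0.0187) and MIR841A (adjusted p = 0.0255) were called higher in prmt4a;4b and MIR160 lower in prmt5 (adjusted p = 0.0541). Without overlap between the mutant and WT were also MIR413 and MIR844A in both mutants, and MIR830A, MIR319C, MIR861A and MIR857A in prmt4a;4b, all with more reads in the mutant and none called in that fit. The share of all genes without overlap was not computed, so these separations are not read as a result about the members. These 9 members passed no filter, and their depth allows no firm comparison. MIR841A passed the filter without prmt4a;4b replicate 3 and was then called in prmt4a;4b (adjusted p = 0.0163), as was MIR860A in prmt5 without prmt5 replicate 1 (log2 2.16, adjusted p = 0.0579). Well known families such as MIR166, MIR169, MIR172, MIR319 and MIR390 had at most 7 reads per library in any of their members.

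Genes of the miRNA pathway were covered far more deeply than most members. All 34 genes of the biogenesis and action list were tested, and 4 were called in prmt5 (2 higher, 2 lower) and 6 in prmt4a;4b (3 higher, 3 lower), or 11.8% and 17.6% of the list beside the backgrounds of 26.1% and 25.8%. The list median was 0.06 in prmt5 and -0.10 in prmt4a;4b.

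Among the processing factors, SE was higher in both mutants, at a normalized mean of 2290 ± 271 in WT, 4180 ± 423 in prmt5 and 3470 ± 109 in prmt4a;4b (SD, n = 3). Its log2 change in prmt5 was 0.83 ± 0.13 (adjusted p = 0.00122), and that in the double mutant was 0.60 ± 0.12 (adjusted p = 0.00234). The latter was at the edge of the fold needed and lay between 0.55 and 0.58 without WT replicate 1 or 2, or without prmt4a;4b replicate 1 or 3, where it was not called. STA1, a splicing factor that also acts in miRNA production, was higher in prmt5 (log2 0.85 ± 0.12, adjusted p = 0.000826) and below the fold for a call in prmt4a;4b (log2 0.47 ± 0.12, adjusted p = 0.0101). HYL1 went the other way, from 275 ± 41.1 in WT to 202 ± 17.9 (prmt5) and 157 ± 20.3 (prmt4a;4b), and only the latter was called (log2 -0.81 ± 0.18, adjusted p = 0.0047, against -0.49 ± 0.17, adjusted p = 0.0468, in prmt5). Without WT replicate 3, HYL1 was also called lower in prmt5 (log2 -0.61, adjusted p = 0.0221). Its direct difference between the mutants was not called (log2 0.36 ± 0.17, adjusted p = 0.148). DCL1 was called in neither mutant (log2 -0.28 ± 0.12 and -0.08 ± 0.11). HEN1 was likewise not called (0.07 ± 0.17 and 0.06 ± 0.17).

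The export factor HST was called in neither mutant (log2 0.45 ± 0.14 in prmt5, and -0.28 ± 0.16 in prmt4a;4b) but was called directly, higher in prmt5 than in prmt4a;4b (log2 0.77 ± 0.15, adjusted p = 0.00352). So were the cap binding protein gene CBP20 (0.70 ± 0.17, adjusted p = 0.012) and the transcription cofactors NOT2A (0.61 ± 0.16, adjusted p = 0.017) and NOT2B (0.61 ± 0.14, adjusted p = 0.00929). The last 3 calls were each lost by fold without 1 library, at 0.52 for CBP20 (without prmt5 replicate 3), 0.46 and 0.53 for NOT2A (without prmt5 replicate 3 or prmt4a;4b replicate 2) and 0.54 and 0.51 for NOT2B (without prmt5 replicate 1 or prmt4a;4b replicate 2). SQN, a cyclophilin that promotes AGO1 activity, was lower in prmt5 than in prmt4a;4b (log2 -0.72 ± 0.21, adjusted p = 0.0245), and was not called without the 2 libraries richest in plastid reads (adjusted p = 0.116). Directly, 6 of the 34 genes were called, 17.6% beside a background of 17.8%.

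Among effector and turnover genes, AGO1 was not called (log2 -0.11 ± 0.11 in prmt5 and 0.18 ± 0.12 in prmt4a;4b). AGO7, which partners miR390, was lower in prmt5 (log2 -0.85 ± 0.25, adjusted p = 0.0221). DRB4, which acts with DCL4 on other small RNAs, was lower in both (log2 -1.22 ± 0.29, adjusted p = 0.00937, and -1.03 ± 0.27, adjusted p = 0.012). In prmt4a;4b HESO1, which adds uridines to unmethylated miRNAs, was lower (log2 -0.93 ± 0.15, adjusted p = 0.000708), while the miRNA degrading nucleases SDN1 (1.33 ± 0.43, adjusted p = 0.0321) and SDN2 (0.82 ± 0.15, adjusted p = 0.00144) were higher. The SDN1 call was lost without prmt4a;4b replicate 2 (adjusted p = 0.119) or replicate 3 (adjusted p = 0.117). HESO1 was also called directly, higher in prmt5 than in prmt4a;4b (log2 0.84 ± 0.17, adjusted p = 0.00444).

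Targets of conserved miRNAs formed a list of 64 genes, all tested. In each mutant 15 were called, 8 higher and 7 lower, which is 23.4% of the list beside the backgrounds of 26.1% and 25.8%. The list median was -0.03 in prmt5 and 0.07 in prmt4a;4b. Directly, 9 were called (4 with more and 5 with fewer reads in prmt5), or 14.1% beside 17.8%.

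For the families with a called precursor, the best matching site in each target mRNA was found by a script in RefSeq transcripts. Bases in capitals can pair with the mature miRNA given above without a bulge or a G-U pair, and the sites are shown because the target values that follow are read against the precursor values.
ARPN: cCaAGGGAAGAGGCAGUGCAU
LAC3: aCCAGuGAAGAGGCuGUGCAg
LAC12: GCCgGuGAAGAGGCuGUGCAa
DCL1: CUGGAUGCAGAGGUUguauuA
CSD1: aAGGGGUuuCCUGAGAuCACA
CSD2: ugcGGGUGACCUGgGAAacau
SPL3: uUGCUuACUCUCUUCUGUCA
SPL9: GUGCUCuCUCUCUUCUGUCA
ARF8: uuAGAUCAgGCUGGCAGCUUgu
AGL16: UCuCUUCUCACAAAUGGUCUA
The sites of SPL3 and AGL16 lie in the 3′ UTR and that of CSD1 in the 5′ UTR, and the others are in coding exons. With G-U pairs counted as unpaired, the ARPN site had 2 unpaired bases and the LAC3 and LAC12 sites 4 each, against 8 in CSD2. Of these, 0, 0, 1 and 3 were G-U pairs, in the same order. The search allowed no bulge, so a site that pairs with a bulge would show more unpaired bases here.

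The 3 targets of miR408 did not change together. LAC3, a laccase gene, had normalized means of 1030 ± 254 in WT, 2210 ± 114 in prmt5 and 999 ± 170 in prmt4a;4b, a log2 change of 1.06 ± 0.16 (adjusted p = 0.00115) and -0.04 ± 0.17 (adjusted p = 0.881). Directly, it was higher in prmt5 than in prmt4a;4b (log2 1.14 ± 0.17, adjusted p = 0.000559). LAC12 rose in both mutants, from 28, 14 and 16 reads in WT to 65, 73 and 58 (prmt5) and 44, 49 and 31 (prmt4a;4b) (log2 1.59 ± 0.36, adjusted p = 0.00752, and 1.33 ± 0.40, adjusted p = 0.0231). ARPN, the plantacyanin gene with the closest site, fell in both, from 139, 189 and 98 reads in WT to 35, 65 and 73 (prmt5) and 37, 63 and 46 (prmt4a;4b) (log2 -1.45 ± 0.26, adjusted p = 0.00228, and -1.27 ± 0.24, adjusted p = 0.00181). MIR408 itself was lower in both mutants.

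No target of miR398 was called in any comparison. CSD1, the cytosolic copper/zinc superoxide dismutase, had log2 changes of 0.24 ± 0.13 in prmt5 and 0.39 ± 0.14 in prmt4a;4b (adjusted p = 0.0436, below the fold for a call). CSD2, the plastid enzyme, had -0.13 ± 0.14 and -0.21 ± 0.12, and their copper chaperone CCS had -0.03 ± 0.13 and 0.31 ± 0.13. DCL1, the target of miR162, was also not called, as given above. AGL16, the target of miR824, had -0.45 ± 0.16 in prmt5 (adjusted p = 0.0547) and -0.00 ± 0.14 in prmt4a;4b.

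Targets of miR156 went in both directions. SPL3 was lower in prmt5, from 185, 225 and 192 reads in WT to 95, 149 and 116 (log2 -0.92 ± 0.18, adjusted p = 0.00371), with 157, 179 and 162 reads and no change called in prmt4a;4b (log2 -0.02 ± 0.17). SPL9 was higher in prmt5 (log2 0.85 ± 0.20, adjusted p = 0.00817) and not called in prmt4a;4b (0.44 ± 0.18, adjusted p = 0.0775). SPL15 was lower in prmt4a;4b (log2 -1.07 ± 0.31, adjusted p = 0.019), and SPL10 and SPL13 were called in neither mutant. SPL3, but not SPL9, was also called directly, lower in prmt5 than in prmt4a;4b (log2 -0.85 ± 0.17, adjusted p = 0.00374). SPL15 was called higher in prmt5 than in prmt4a;4b (log2 1.12 ± 0.41, adjusted p = 0.0645), a call lost without prmt5 replicate 2 or 3, or prmt4a;4b replicate 2 or 3 (adjusted p between 0.129 and 0.234).

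Of the miR167 targets, ARF8 fell in both mutants, from a normalized mean of 1270 ± 86.8 in WT to 780 ± 83.1 in prmt5 (log2 -0.75 ± 0.13, adjusted p = 0.00178) and 730 ± 148 in prmt4a;4b (log2 -0.80 ± 0.15, adjusted p = 0.00165). ARF6 rose in prmt4a;4b (log2 0.61 ± 0.13, adjusted p = 0.00444) and was not called in prmt5 (0.30 ± 0.13, adjusted p = 0.0979). Its call was lost by fold, at log2 0.53 to 0.57, without WT replicate 1 or 2, or prmt4a;4b replicate 1 or 2. From other families, TCP4 (miR319; log2 0.58 ± 0.14 and 0.72 ± 0.14) and GRF3 (miR396; 0.86 ± 0.16 and 0.74 ± 0.16) were called higher in both mutants, with adjusted p between 0.00216 and 0.00886. The TCP4 call in prmt5 was lost by fold, at 0.49 to 0.57, without WT replicate 1 or 2 or prmt5 replicate 3.

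**Figure D4:**
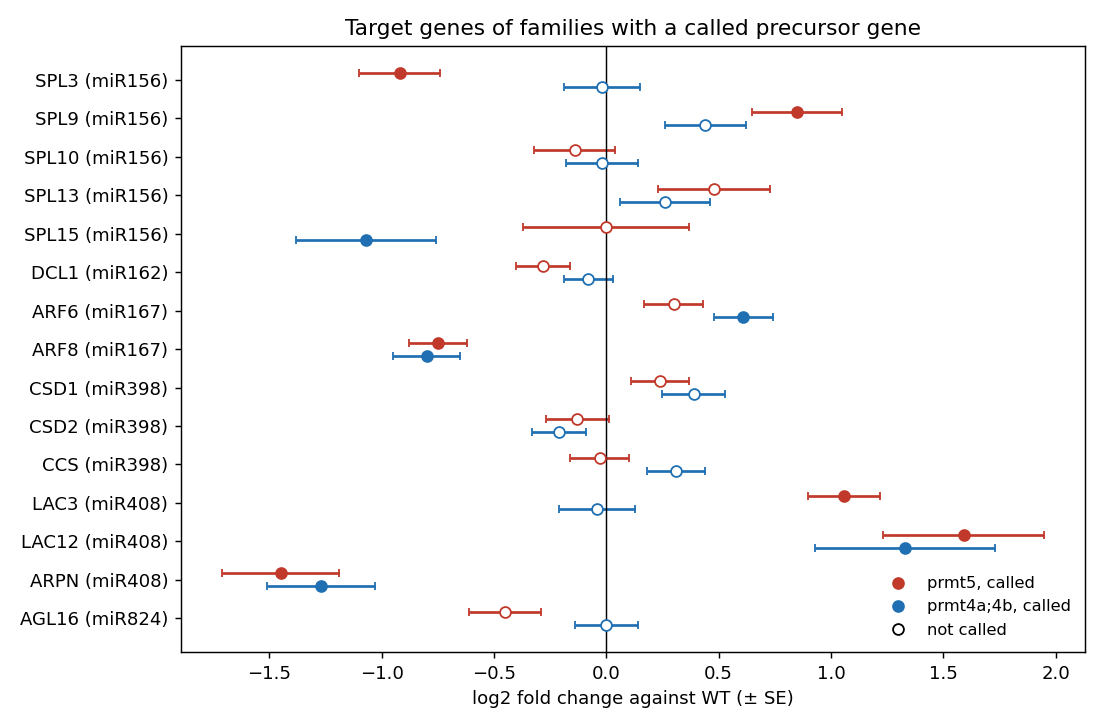
Log2 fold change against WT (horizontal axis, with SE from edgeR) of the target genes whose miRNA family had a called precursor gene, in prmt5 (red) and prmt4a;4b (blue), where filled points were called. The miR408 targets LAC12 and ARPN lie on opposite sides of 0 in both mutants, and the 3 miR398 targets have open points only.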

How the data were processed

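Polyadenylated RNA of 9 libraries was sequenced by the authors, aligned with TopHat2 2.0.9 to TAIR10 and deposited as read counts per gene, intron and splicing bin. These deposited counts are raw whole reads. How reads that map to several places were treated is not given in the sources used here, which matters for families with similar sequences. Deposited fold changes and p-values from the authors' own comparisons (edgeR 3.4.2 under R 3.0.2) were not used.

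Genes whose mean reached 10 reads in 1 or more genotypes were tested with edgeR 4.0.16 (R 4.3.3, quasi-likelihood F-test, TMM scaling), each mutant with WT in its own fit and the direct comparison in a fit of all 9 libraries. Calls needed a Benjamini-Hochberg adjusted p under 0.1 and a log2 change over 0.58 in size. Normalized reads are scaled to a library of 31446281 reads. The tests were also run on counts simulated from WT means, whose outcome is not given here. Genes with the fewest WT reads, such as MIR835A, were left out of that simulation. Named genes were the members called in any comparison or not overlapping WT with an unadjusted p under 0.05, the 5 densest members, families of called members, called pathway genes with 6 core factors, and targets of called families or called in both mutants. The members and lists were chosen with earlier results of these data known. Alternatives were another scaling, DESeq2 1.42.0, other filters and thresholds, left-out libraries, a replicate block, a joint fit and members without overlaps. Sequences and strands came from RefSeq (TAIR10.1), where 32834 of 32835 loci overlap their place in the tables.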

Additional observations from a re-analysis of the deposited data

Results flagged for a closer look

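The effects of the 2 mutants differed for 6 members by the direct test between them. The log2 difference of prmt5 from prmt4a;4b was -2.43 for MIR156C, -2.24 for MIR162A, -1.26 for MIR398C, -0.65 for MIR834A, -2.3 for MIR838A and -0.7 for MIR850A. MIR398C shares its reads with NRT2.7, MIR838A with a DCL1 intron, MIR850A with an intron of AT4G13495 and MIR834A with AT5G08230, while MIR156C and MIR162A overlap no other gene. MIR838A entered the comparison only through prmt4a;4b, which favoured a lower value in prmt5. Groups of 3 libraries are too small for the search for outlying samples.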

How the results depend on the processing

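The number of members called in prmt5 was 7, and it moved to 1 over members without an overlap (6 tested), to 3 with a filter at a mean of 50 reads, and lay between 4 and 7 with single libraries left out. WT replicate 2 gave the lowest value, losing MIR824A, MIR822A and MIR398B. In prmt4a;4b it was 11, moving to 4 without overlaps and to 6 at a mean of 50 reads, and to between 10 and 12 with libraries left out. Directly it was 6, moving to 2 without overlaps and to between 4 and 8 with libraries left out. The first 2 settings test fewer members. Without a filter it was 8, 13 and 9. Without the 2 libraries richest in plastid reads it was 6, 11 and 7. MIR822A and MIR398B were then lost in prmt5 and MIR167D in prmt4a;4b, while MIR860A (prmt5) and MIR841A (prmt4a;4b and directly) passed the filter and were called. Across the alternatives in which the member was tested, 4 of 7, 10 of 11 and 4 of 6 member calls were kept. The share of all genes called was taken in the main setting only, so the other counts have no background beside them.

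The replicate block gave 6, 12 and 6 called members, losing MIR398B in prmt5 (adjusted p = 0.136) and adding MIR838A in prmt4a;4b (adjusted p = 0.0744). Deviations of same-numbered libraries correlated between -0.12 and 0.12, so that the numbers were not taken to pair the libraries.

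Signs turned for values that were not called, whose ranges with libraries left out were as follows. In prmt5 they were -0.08 to 0.51 for MIR167D, -0.61 to 0.17 for MIR163, -0.05 to 0.18 for MIR414, -0.03 to 0.20 for MIR834A, -0.25 to 0.04 for HESO1 and -0.29 to 0.39 for SPL15 (-0.15 with the replicate block). In prmt4a;4b they were -0.09 to 0.45 for MIR163, -0.63 to 0.16 for MIR398B, -0.21 to 0.17 for LAC3 and -0.09 to 0.08 for SPL3. Directly they were -0.78 to 0.02 for MIR163, -0.37 to 0.04 for ARPN, -0.43 to 0.06 for DRB4 and -0.06 to 0.24 for ARF8. Without the plastid-rich libraries MIR414 and HESO1 in prmt5 stood at -0.05 and 0.04, and ARPN directly at 0.03. The cause was not tested. Of the 175 members, 159 were too sparse to test.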
